A study of Mus musculus with 6 samples.

Results

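The genes described here are 35 macrophage and monocyte genes, taken by name from the 34745 genes measured in tumours grown under the skin of mice. They cover lineage and growth factor receptors, Fc receptors with their adaptors, the C1q chains, receptors for microbes and dying cells, and genes often used to tell tissue-resident, alternatively activated and inflammatory cells apart. All 35 had counts in at least one library, and 33 had enough counts to be tested between the diets. Timd4 and Vsig4 did not.

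RNA was sequenced from 3 tumours of C57BL/6J mice on a high cholesterol diet (HCD) and 3 tumours of C57BL/6J mice on a normal diet (ND). In both groups B16F10 cells, a line derived from a mouse melanoma, had been injected into the right flank, and the whole tumour was extracted, so host cells are part of every sample. Whether each numbered tumour came from its own animal is not stated in the labels. The p-values therefore reflect the variation among these samples alone, which may be technical. Libraries held 20351637 to 20918324 counts in HCD and 20622727 to 26228074 counts in ND. The named line was not borne out by pigment cell genes: of 5 such genes, Tyr, Dct and Mlana had 0 counts in all 6 libraries, Tyrp1 had 1 count in all, and Pmel had 0.532 to 0.964 CPM in HCD and 0.437 to 0.794 CPM in ND tumours. The unit of level is the CPM, reads of a gene scaled to a common library total (counts with TMM factors, as CPM). The summed level of 5 hepatocyte genes (Alb, Afp, Hnf4a, Krt8, Krt18) was 6305 to 8378 CPM in HCD and 6583 to 7798 CPM in ND tumours. Ptprc, the gene of the pan-leucocyte protein CD45, was present in every library.

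Macrophages are phagocytes that depend on the growth factor receptor CSF1R and on the transcription factor PU.1, encoded by Spi1. They recognise antibody-coated particles through Fc receptors, dying cells through receptors such as MERTK, and microbial sugars and lipids through pattern recognition receptors. In tumours they arise both from cells resident in the tissue and from monocytes recruited from blood, and the transcripts of these states overlap widely. In bulk tissue, fewer cells of a type and less RNA per cell cannot be told apart.

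None of the 33 tested genes differed between the diets past the adjusted threshold of 0.05 (0 higher, 0 lower), and none of the 15539 tested genes did (0% higher and 0% lower). The test was edgeR's quasi-likelihood test with Benjamini-Hochberg adjustment over all tested genes, and the smallest adjusted p of the 33 genes was 0.839. At an unadjusted p under 0.05 there was 1 gene, Cd14, which lay lower in HCD, where 1.81% of all tested genes lay higher and 3.48% lower at that level. DESeq2 called none of the 33 genes either, and 0.00644% higher and 0.045% lower of all tested genes. For 0 of the 33 genes did all 3 HCD tumours lie above all 3 ND tumours, and for 0 did they lie below, against 4.75% and 6.36% of all tested genes. Log2 fold changes of HCD over ND were positive for 28 of the 33 genes, against 53% of all tested genes, with a median of 0.40 against 0.01 over all tested genes.

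The positive balance varied with the libraries included. HCD 2 was the highest library for 29 of the 33 genes, where it was the highest for 23% of all tested genes, and ND 1 was the lowest for 23 of the 33 genes, against 22.8%. Both held at once for 21 of the 33 genes, against 10.5% of all tested genes. Summed over the 35 genes, the level was 1563, 2561 and 1298 CPM in HCD 1, 2 and 3, against 879, 1684 and 1508 CPM in ND 1, 2 and 3. HCD 2 lay above every other tumour and ND 1 below, and the remaining 2 HCD tumours fell within or below the range of the remaining 2 ND tumours. Without HCD 2 and ND 1, a fit chosen after seeing the data, 6 of 34 tested genes had positive fold changes and the median was -0.16. This pair was the highest HCD and the lowest ND tumour, so leaving it out lowers the difference by construction. Without HCD 1 and ND 2, a pair also chosen after seeing the data, 30 of 33 were positive with a median of 0.80. Without HCD 2 alone 19 of 34 were positive with a median of 0.05, and without ND 1 alone 25 of 34 with a median of 0.15. Ptprc moved with these genes, at 136, 224 and 101 CPM in HCD 1, 2 and 3, against 67.5, 142 and 133 CPM in ND 1, 2 and 3. T cell and mast cell markers did as well: the summed level of 5 T cell genes was 25.7 to 62.3 CPM in HCD and 10.9 to 38 CPM in ND, and that of 4 mast cell genes 50.8 to 148 CPM in HCD and 22.9 to 71.7 CPM in ND. In both lists HCD 2 was the highest and ND 1 the lowest. The summed level of 5 dendritic cell genes was 24.0 to 38.3 CPM in HCD and 16.2 to 32.0 CPM in ND. It too was highest in HCD 2 and lowest in ND 1. That of 4 B cell genes was 1.75 to 14.1 CPM in HCD and 1.07 to 3.40 CPM in ND, highest in HCD 1 and lowest in ND 1. None of these markers was at 0 in all libraries or passed the adjusted threshold, and their part in the result was not tested.

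**Figure D1:**
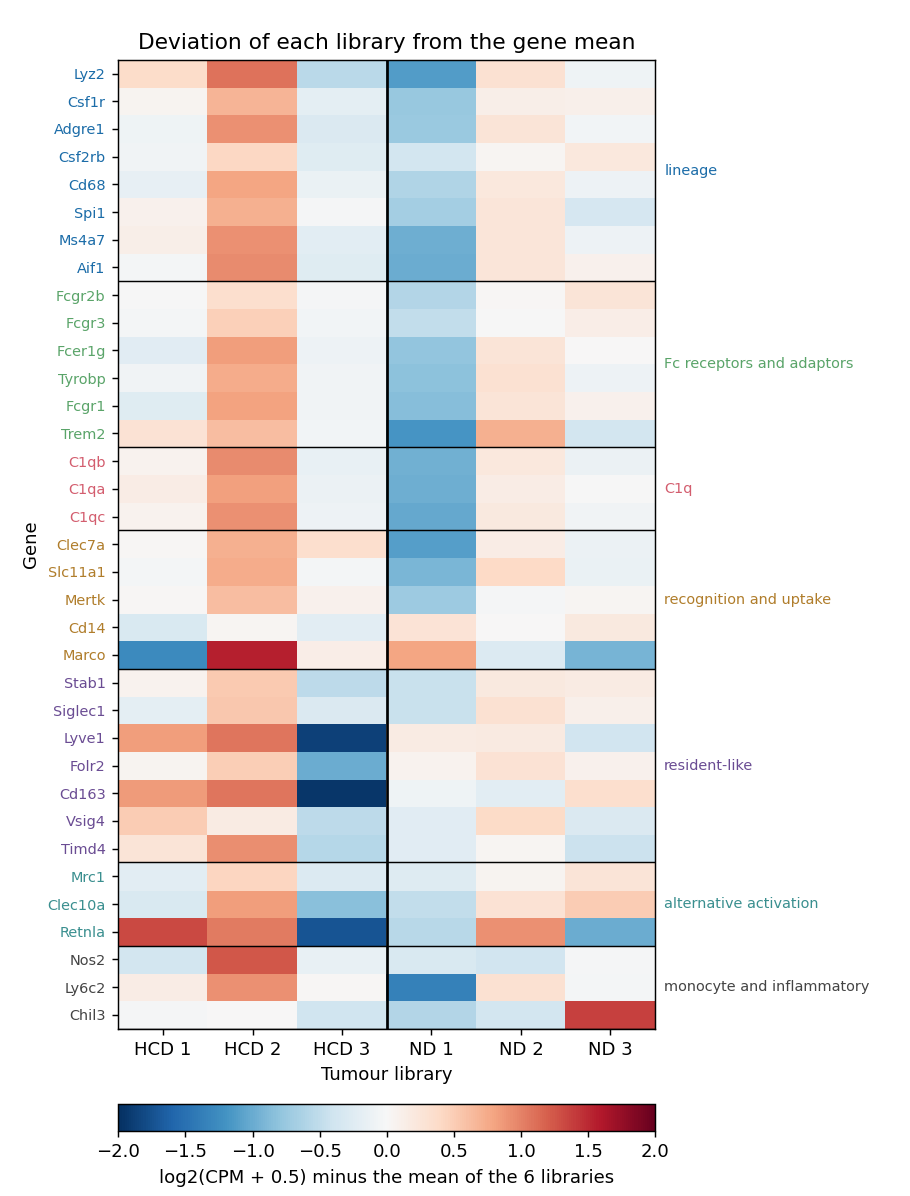
Each cell is the log2(CPM + 0.5) of 1 gene in 1 tumour minus the mean of that gene over the 6 libraries, with 3 HCD tumours left of 3 ND tumours and genes grouped and coloured by role. HCD 2 is the highest library for 29 and ND 1 the lowest for 23 of the 33 tested genes, against 23% and 22.8% of all tested genes. HCD 3 is low mainly in the resident-like and alternative activation groups, and is the lowest library for 14.6% of all tested genes.

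Levels per gene length (FPKM, counts scaled by gene length and library total) spanned a wide range. The highest mean over the 6 libraries was that of Lyz2 (210 FPKM), followed by C1qa (126 FPKM), C1qb (123 FPKM), Tyrobp (49.8 FPKM) and C1qc (43.7 FPKM). The lowest were Timd4 (0.136 FPKM) and Vsig4 (0.180 FPKM). Among tested genes, the ratio of the highest to the lowest library, taken in CPM, was smallest for Cd14 (1.51) and Mrc1 (1.64). It was largest for Marco (19.8), Cd163 (12.8), Retnla (11.04) and Lyve1 (9.99).

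In the lineage group 8 of 8 genes had positive fold changes, with a median log2 fold change of 0.43, and none passed the test. Lyz2, which encodes lysozyme of myeloid cells (ENSMUSG00000069516, GRCm38 chromosome 10, 117277331 to 117282321), had 306, 499 and 161 CPM in HCD 1, 2 and 3, against 108, 291 and 222 CPM in ND 1, 2 and 3. The diets overlapped, since HCD 3 lay below ND 2 and ND 3. Means were 322 ± 169 CPM in HCD and 207 ± 92.3 CPM in ND (SD, n = 3 each), for a log2 fold change of 0.64 with a 95% interval of -0.48 to 1.75 (edgeR adjusted p = 0.842). Of its transcript sequence, 15.4% of 50-base stretches also occur in other genes, mainly the close copy Lyz1, which had 1.07 to 12.4 CPM. Csf1r, the gene of the receptor for CSF1 and IL-34, had 114, 176 and 96.5 CPM in HCD 1, 2 and 3, against 64.6, 119 and 119 CPM in ND 1, 2 and 3. Its log2 fold change was 0.35 with a 95% interval of -0.35 to 1.06, and 0.07 without HCD 2. An exon of Hmgxb3 on the opposite strand overlaps Csf1r, and 17.7% of its 50-base stretches are shared, so some counts could belong to either gene. In all 8 lineage genes HCD 2 was the highest and ND 1 the lowest library, against 10.5% of all tested genes.

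The other lineage genes had the same order of extremes with smaller levels. Spi1 had a log2 fold change of 0.51 (95% interval -0.18 to 1.21), with 27.5 ± 8.25 CPM in HCD and 19.2 ± 6.62 CPM in ND tumours (SD, n = 3 each). Adgre1, which encodes the mouse macrophage surface protein F4/80, had 51.5 ± 24.8 CPM in HCD and 38.9 ± 13.01 CPM in ND, and its log2 fold change of 0.40 became -0.06 without HCD 2. Cd68, a gene of a lysosomal membrane glycoprotein, had a log2 fold change of 0.37 (-0.02 without HCD 2). Aif1, which encodes the calcium-binding protein IBA1, had a log2 fold change of 0.46 (-0.00294 without HCD 2), and the membrane protein gene Ms4a7 0.56. Csf2rb, the common beta chain of the receptors for GM-CSF, IL-3 and IL-5, had the value nearest to 0 in the group, 0.08, and -0.13 without HCD 2. It shares 18.4% of its 50-base stretches with other genes, mainly Csf2rb2.

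**Figure D2:**
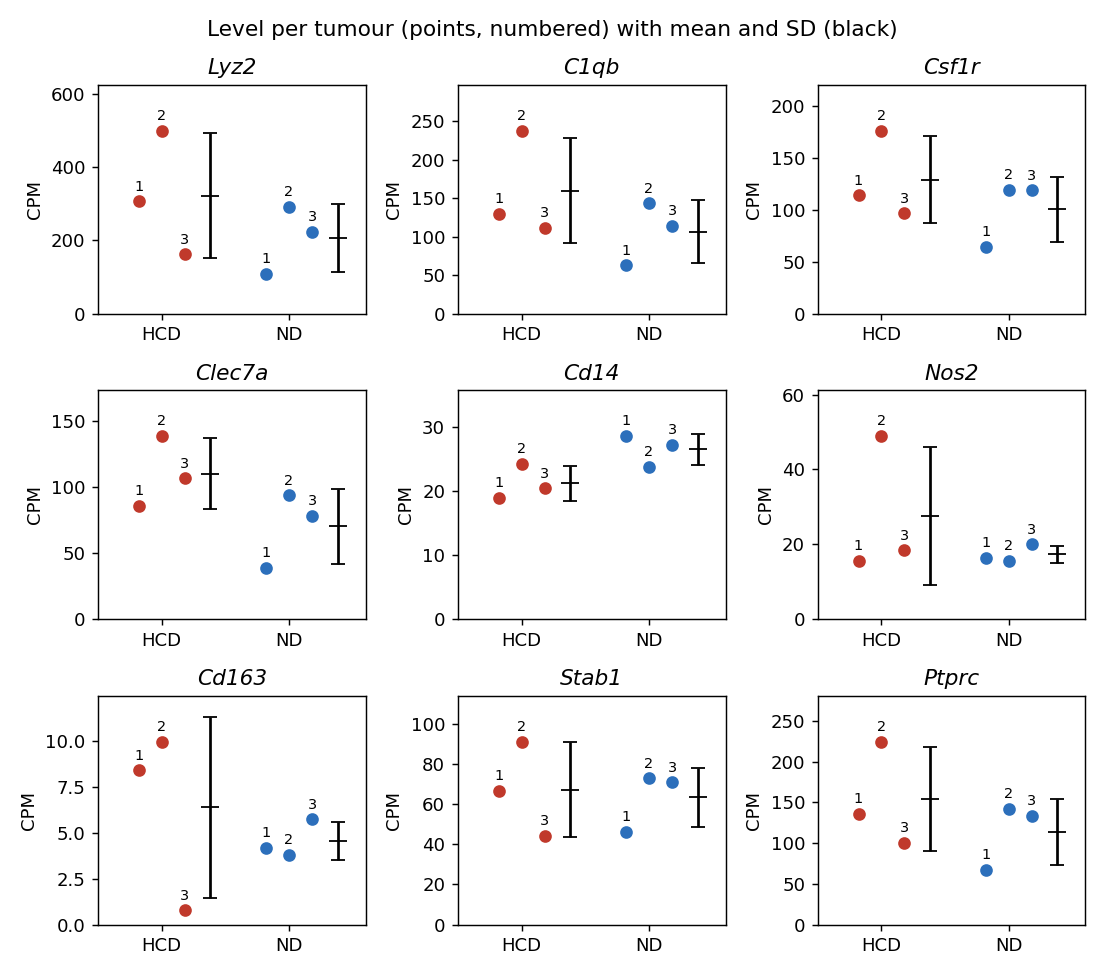
Points are CPM in each numbered tumour, HCD left of ND, and black bars are the mean and SD of 3 tumours, on linear axes from 0. Lyz2, C1qb, Csf1r and Ptprc share a high HCD 2 and a low ND 1, Nos2 is high in HCD 2 (48.9 CPM), and Cd163 is low in HCD 3 (0.779 CPM).

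Genes of Fc receptors and their adaptors had positive fold changes for 6 of 6 members, with a median of 0.35 and no member past the test. Fcgr2b, the inhibitory low-affinity receptor for IgG, had 88.7, 113 and 88.3 CPM in HCD 1, 2 and 3, against 59.3, 90.6 and 107 CPM in ND 1, 2 and 3. Its log2 fold change was 0.18 with a 95% interval of -0.33 to 0.68, and -0.03 without ND 1. Fcgr3, an activating low-affinity receptor, had 60.9, 87.4 and 60.6 CPM in HCD 1, 2 and 3, against 44.4, 62.1 and 68.6 CPM in ND 1, 2 and 3, a log2 fold change of 0.26 with a 95% interval of -0.23 to 0.74. The 2 receptors kept close to one ratio per gene length, 0.713 ± 0.0478 for Fcgr2b over Fcgr3 FPKM in HCD and 0.737 ± 0.0550 in ND tumours (SD, n = 3 each). They share sequence with each other, 8.61% of the 50-base stretches of Fcgr2b and 12.8% of those of Fcgr3 occurring in other genes. The high-affinity IgG receptor gene Fcgr1 had a log2 fold change of 0.34 (-0.06 without HCD 2). The adaptor genes Fcer1g and Tyrobp, whose products carry the ITAM motif that starts signalling, had log2 fold changes of 0.37 (-0.05 without HCD 2) and 0.39. Trem2, a lipid-sensing receptor that signals through the Tyrobp product, was the exception in order: ND 2 (9.53 CPM) was its highest library, above 6.94, 8.84 and 5.41 CPM in HCD 1, 2 and 3, and ND 1 its lowest (2.19 CPM). Its log2 fold change was 0.41 and 0.03 without ND 1. Per gene length, Trem2 was at 0.0182 to 0.0255 of Tyrobp in HCD tumours and at 0.0136 to 0.0266 of Tyrobp in ND tumours.

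The 3 C1q chains, which assemble into the molecule that starts the classical complement pathway and which macrophages make in tissues, varied together from tumour to tumour, and none passed the test. C1qa had 136, 215 and 113 CPM in HCD 1, 2 and 3, against 61.8, 135 and 121 CPM in ND 1, 2 and 3. C1qb (ENSMUSG00000036905, GRCm38 chromosome 4, 136880129 to 136886187) had 130, 238 and 111 CPM in HCD 1, 2 and 3, against 62.7, 143 and 114 CPM in ND 1, 2 and 3. In each case HCD 2 stood apart above and ND 1 below, and the other 4 tumours lay close together. Log2 fold changes were 0.55 (95% interval -0.25 to 1.35) for C1qa, 0.58 (-0.30 to 1.46) for C1qb and 0.58 (-0.30 to 1.46) for C1qc, with an edgeR adjusted p of 0.839 for each. Without HCD 2 they were 0.24, 0.18 and 0.20. The chains kept their proportions while the level varied by up to 3.86 times between libraries: C1qb over C1qa FPKM was 0.909, 1.05 and 0.944 in HCD 1, 2 and 3, against 0.971, 1.01 and 0.894 in ND 1, 2 and 3. C1qc over C1qa FPKM was 0.347 ± 0.0230 in HCD and 0.341 ± 0.0144 in ND tumours (SD, n = 3 each).

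Since Spi1 is among these genes and PU.1 binds purine-rich sites, the 250 bases upstream of the RefSeq start (GRCm38.p6) were searched for the core GAGGAA on both strands (TTCCTC on the other). Windows were at hand for 24 of the 35 genes, and 18 of their 29 windows (62.1%) held the core, against 23.3% of all 32851 windows of the same length. A match is a description of letters only. The windows of C1qb, Clec7a and Stab1, from 3 of the role groups and free of annotated exons, are shown with the core in capitals. They lie on the minus strand at chr4:136886201-136886450, chr6:129472780-129473029 and chr14:31168642-31168891.
C1qb: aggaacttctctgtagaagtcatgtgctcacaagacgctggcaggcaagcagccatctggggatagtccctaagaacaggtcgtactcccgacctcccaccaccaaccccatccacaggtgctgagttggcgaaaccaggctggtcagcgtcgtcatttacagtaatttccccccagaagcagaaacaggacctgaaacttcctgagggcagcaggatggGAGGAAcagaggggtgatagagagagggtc
Clec7a: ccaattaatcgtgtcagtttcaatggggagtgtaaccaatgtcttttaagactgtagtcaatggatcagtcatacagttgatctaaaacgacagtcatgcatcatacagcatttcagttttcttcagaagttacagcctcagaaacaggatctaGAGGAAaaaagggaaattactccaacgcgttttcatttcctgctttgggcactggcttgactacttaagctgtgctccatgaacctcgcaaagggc
Stab1: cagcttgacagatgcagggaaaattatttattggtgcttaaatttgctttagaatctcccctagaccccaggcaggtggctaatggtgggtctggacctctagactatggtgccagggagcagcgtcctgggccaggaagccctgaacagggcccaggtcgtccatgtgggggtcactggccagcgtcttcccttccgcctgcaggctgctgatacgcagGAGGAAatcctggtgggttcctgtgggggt
The core starts at -30 in C1qb, -96 in Clec7a and -30 in Stab1, counted from the start site. Of these 3 genes, C1qb and Clec7a were lowest in ND 1, and Stab1 was lowest in HCD 3 and close to that in ND 1.

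Among genes of recognition and uptake, 4 of 5 had positive fold changes and Cd14 a negative one. Clec7a, which encodes the fungal glucan receptor dectin-1 (ENSMUSG00000079293, GRCm38 chromosome 6, 129461591 to 129472779, listed in GENCODE M21 as a polymorphic pseudogene), had 85.3, 138 and 106 CPM in HCD 1, 2 and 3, against 38.9, 93.5 and 77.8 CPM in ND 1, 2 and 3. HCD 2 and HCD 3 lay above all ND tumours and HCD 1 below ND 2. It had the smallest p of the 33 genes among those with a positive fold change, with a log2 fold change of 0.65 (95% interval -0.12 to 1.42, edgeR adjusted p = 0.839), and 0.36 without ND 1. Slc11a1, a metal transporter of the phagosome, had 32.1, 55.4 and 32.3 CPM in HCD 1, 2 and 3, against 17.4, 43.7 and 30.0 CPM in ND 1, 2 and 3, a log2 fold change of 0.40 and 0.09 without HCD 2. Mertk, a receptor for dying cells, had 32.2 ± 7.86 CPM in HCD and 23.1 ± 6.29 CPM in ND (SD, n = 3 each), for a log2 fold change of 0.48 with a 95% interval of -0.11 to 1.07. The scavenger receptor gene Marco ranged from 0.241 CPM (5 counts) in HCD 1 to 4.78 CPM in HCD 2, and ND tumours lay between 0.437 and 2.59 CPM, so its log2 fold change of 0.69 has a 95% interval of -1.66 to 3.04. That fold change was -0.64 without HCD 2 and 1.58 without ND 1.

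Cd14, the co-receptor for bacterial lipopolysaccharide, was the one gene whose 95% interval lay wholly on one side of 0. It had 19.0, 24.3 and 20.5 CPM in HCD 1, 2 and 3, against 28.6, 23.8 and 27.2 CPM in ND 1, 2 and 3. Only HCD 2 reached into the ND range, where it lay above ND 2. Means were 21.2 ± 2.76 CPM in HCD and 26.5 ± 2.48 CPM in ND (SD, n = 3 each), for a log2 fold change of -0.32 with a 95% interval of -0.62 to -0.02. It had an unadjusted p of 0.0379 and an edgeR adjusted p of 0.839. The unadjusted edgeR p was 0.109 without ND 1, 0.0937 without ND 3, 0.13 without HCD 1 and 0.0955 without HCD 3. It was 0.0102 without HCD 2 and 0.0287 without ND 2. Members with an unadjusted edgeR p under 0.05 were 0 of 34 without ND 1 and 0 of 34 without ND 3. Without ND 2 they were 4 of 33. They were 1 of 33 without HCD 1, 1 of 34 without HCD 2 and 2 of 34 without HCD 3. Over all tested genes, 154 lay higher and 224 lower of 15982 without ND 1. There were 201 and 324 of 15972 without ND 3, and 553 and 801 of 15865 without ND 2. Without HCD 1, 2 and 3, 253, 409 and 450 genes lay higher. In these 3 fits 401, 434 and 546 lay lower, of 15890, 15926 and 15996. ND 1, the lowest tumour for most of the other genes, was the highest for Cd14, and the fold change stayed negative in each fit without 1 library, from -0.42 to -0.25. Neutrophil markers lay on the same side: the summed level of 7 genes was 63.6 to 77.8 CPM in HCD and 78.1 to 146 CPM in ND tumours, with 6 of 7 fold changes negative, 0 of 7 genes past the adjusted threshold and none at 0 in all libraries. Their part in the level of Cd14 was not tested.

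**Figure D3:**
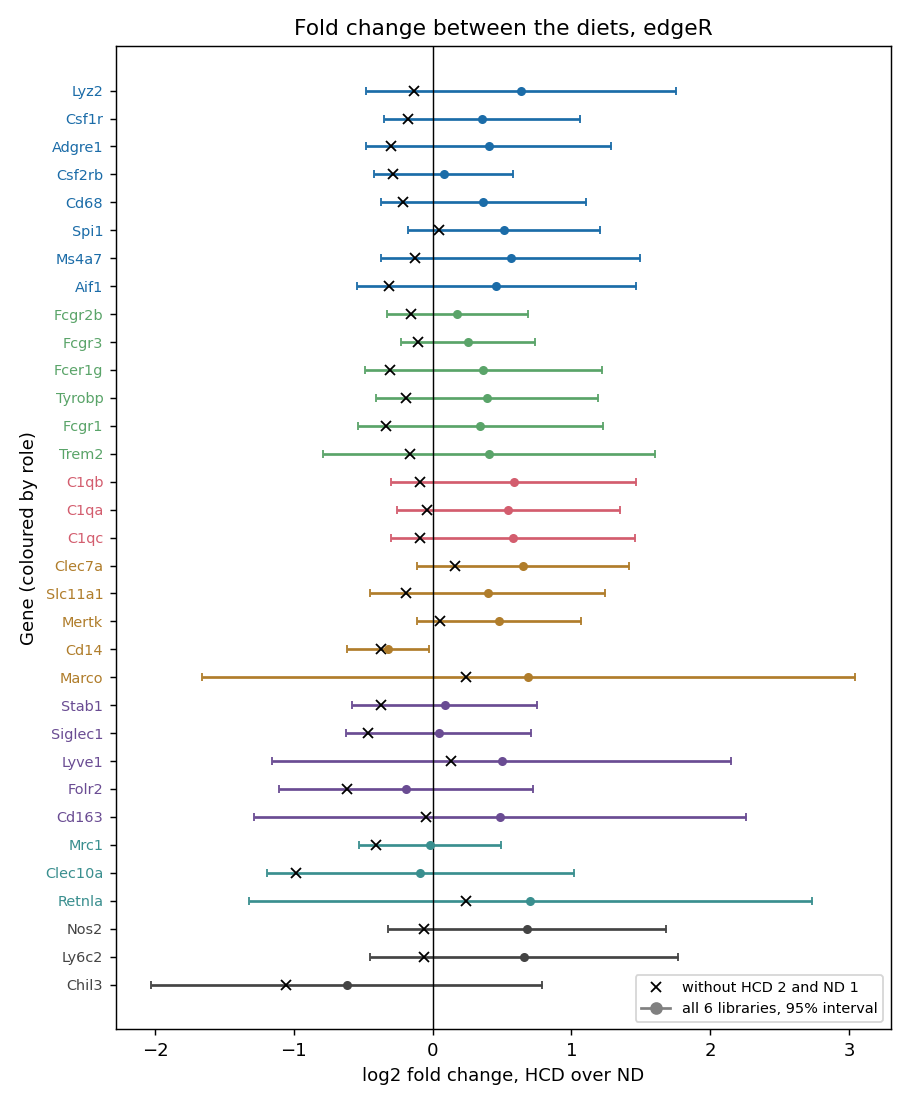
Points are log2 fold changes of HCD over ND in the edgeR fit of all 6 libraries with 95% intervals, and crosses are the fit without HCD 2 and ND 1. Of the 33 intervals, that of Cd14 (-0.62 to -0.02) is the one that does not cover 0, and most crosses lie left of 0.

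Resident-like genes had a median log2 fold change of 0.09 over 5 tested members, 4 of them positive, and none passed the test. With no filter on low counts, where all 7 members were tested, the median was 0.28. The lowest library was HCD 3 for 4 of the 5, against 14.6% of all tested genes. The lineage genes had ND 1 lowest in 8 of 8, against 22.8%. Stab1, a scavenger receptor gene of macrophages and sinusoidal and lymphatic endothelium, had 66.6, 91.0 and 44.0 CPM in HCD 1, 2 and 3, against 46.3, 72.7 and 70.7 CPM in ND 1, 2 and 3, a log2 fold change of 0.09 (-0.19 without HCD 2). Siglec1, the sialic acid receptor of tissue and lymph node macrophages, had 16.3, 27.5 and 15.3 CPM in HCD 1, 2 and 3, against 13.7, 23.4 and 20.3 CPM in ND 1, 2 and 3, a log2 fold change of 0.04 (-0.27 without HCD 2). For both, the diets overlapped.

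Among the tested resident-like genes, Cd163 and Lyve1 had the widest spread within HCD, as the ratio of the highest to the lowest tumour. Cd163, the scavenger receptor for haemoglobin bound to haptoglobin, had 8.39, 9.95 and 0.779 CPM in HCD 1, 2 and 3, against 4.15, 3.78 and 5.73 CPM in ND 1, 2 and 3. HCD 1 and HCD 2 lay above all ND tumours and HCD 3, with 16 counts, far below. Lyve1, a hyaluronan receptor gene of lymphatic endothelium and of perivascular macrophages, had 12.0, 14.1 and 1.41 CPM in HCD 1, 2 and 3, against 7.28, 7.38 and 4.81 CPM in ND 1, 2 and 3, which is the same order of the HCD tumours. Log2 fold changes were 0.49 (95% interval -1.29 to 2.26) for Cd163 and 0.50 (-1.15 to 2.15) for Lyve1, with edgeR adjusted p of 0.900 and 0.895. Without HCD 3 they were 1.01 and 1.00, without HCD 2 0.01 and 0.05, and by limma-voom -0.12 and -0.05. Of 6 fibroblast markers chosen after values had been seen, Pdgfra, Lum, Dpt and Pi16 were also lowest in HCD 3, Dpt at 10.6, 14.7 and 1.22 CPM in HCD 1, 2 and 3, against 3.62, 6.62 and 4.61 CPM in ND 1, 2 and 3. The most abundant of the 6 were not: Dcn was lowest in HCD 2 (1404 CPM, against 1558 CPM in HCD 3). Col1a1 was lowest in ND 2 (300 CPM, against 309 CPM in HCD 3). The summed level of the 6 was 1881 to 2210 CPM in HCD and 2008 to 2586 CPM in ND, none was at 0, and their part in the levels of Cd163 and Lyve1 was not tested. Folr2, the folate receptor beta gene, had 5.79, 7.97 and 2.53 CPM in HCD 1, 2 and 3, against 5.85, 6.85 and 5.92 CPM in ND 1, 2 and 3, again with HCD 3 lowest. Its log2 fold change was -0.19, and 0.15 without HCD 3, and 56.7% of its 50-base stretches are shared, mainly with Gm10602, which overlaps it on the opposite strand.

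The remaining resident-like genes were near the limit of detection. Timd4, a phosphatidylserine receptor gene of resident macrophages, had 8, 19 and 0 counts in HCD 1, 2 and 3, against 3, 7 and 1 counts in ND 1, 2 and 3. The 0 of HCD 3 allows a level of up to 0.146 CPM (3 counts of that library, counting error only). Vsig4, a complement receptor gene of Kupffer cells and other resident macrophages, had 13, 8 and 1 counts in HCD 1, 2 and 3, against 4, 14 and 3 counts in ND 1, 2 and 3. Neither gene passed the filter on low counts, and in the edgeR fit with no filter their adjusted p were 0.823 (Timd4) and 0.950 (Vsig4). Of 4 markers of Kupffer cells and liver sinusoids, Clec4f had 0 counts in all 6 libraries and Clec4g 1 count in all, and the 4 summed to 1.254 to 13.67 CPM in HCD and 0.759 to 3.37 CPM in ND. Cd5l, a secreted macrophage protein gene, had 0.675, 11.8 and 4.63 CPM in HCD 1, 2 and 3, against 0.581, 2.88 and 1.21 CPM in ND 1, 2 and 3. Lymphatic endothelium markers (Prox1, Flt4, Pdpn, Ccl21a), which bear on Lyve1 and Stab1, summed to 127 to 133 CPM in HCD and 126 to 153 CPM in ND tumours, with none at 0 in all libraries. Prox1 made up much of that sum, at 66.3 to 80.3 CPM in HCD and 64.0 to 81.5 CPM in ND. Flt4 had 44.55 to 50.7 CPM in HCD and 55.15 to 74.6 CPM in ND. Pdpn had 1.75 to 7.68 CPM in HCD, and Ccl21a 0.292 to 5.64 CPM in HCD and 0 to 1.21 CPM in ND. As the 4 genes differed this much in level and order of tumours, their sum cannot be read as an amount of lymphatic endothelium. Flt4 and Ccl21a went opposite ways, with log2 fold changes of -0.47 and 2.28 (edgeR adjusted p = 0.839 for both). Pdpn alone of the 4 was, like Lyve1, at its lowest in HCD 3 (1.75 CPM, against 5.24 to 6.16 CPM in ND). The part of these cells in the level of Lyve1 and Stab1 was not tested.

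Of 3 genes of alternative activation, 1 had a positive and 2 a negative fold change, and none passed the test. Mrc1, the mannose receptor gene, had 63.8, 99.6 and 60.8 CPM in HCD 1, 2 and 3, against 62.0, 76.6 and 88.6 CPM in ND 1, 2 and 3, a log2 fold change of -0.02 with a 95% interval of -0.53 to 0.49. Its range over the libraries was small, and ND 1 did not stand apart. Clec10a, which encodes a galactose-binding lectin of macrophages and dendritic cells, had 9.40, 21.2 and 6.33 CPM in HCD 1, 2 and 3, against 8.17, 14.3 and 16.7 CPM in ND 1, 2 and 3, a log2 fold change of -0.09 (0.22 without HCD 3). Of its 50-base stretches 10.6% are shared, mainly with the close copy Mgl2. Retnla, a secreted protein gene induced by IL-4 in mouse macrophages, had 14.5, 11.9 and 1.32 CPM in HCD 1, 2 and 3, against 3.62, 10.8 and 2.52 CPM in ND 1, 2 and 3. HCD 1, HCD 2 and ND 2 formed the high tumours, in both diets, and the log2 fold change of 0.70 has a 95% interval of -1.32 to 2.73. It was 0.22 without HCD 1 and 1.59 without ND 2. The same 3 tumours had the highest summed level of 6 skeletal muscle markers, at 1525, 144 and 10.1 CPM in HCD 1, 2 and 3, against 7.77, 1656 and 17.8 CPM in ND 1, 2 and 3. The summed level of 6 adipocyte markers was 53.4, 80.8 and 36.2 CPM in HCD 1, 2 and 3. In ND 1, 2 and 3 it was 51.0, 46.7 and 55.2 CPM, so the sum was not highest in those 3 tumours. Fabp4 made up much of that sum, at 23.77 to 56.09 CPM in HCD and 27.01 to 37.6 CPM in ND. Of the 6, Adipoq, Plin1 and Cidec were highest in HCD 1, HCD 2 and ND 2, at low levels, while Fabp4, Lipe and Lep were not. Adipoq had 1.495, 1.304 and 0.1948 CPM in HCD 1, 2 and 3. In ND 1, 2 and 3 it had 0.04465, 1.4 and 0.04853 CPM. These 2 sets of markers were chosen after values had been seen, none of their genes was at 0 in all libraries, and their part in the level of Retnla was not tested.

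Monocyte and inflammatory genes differed among themselves in the order of tumours, with 2 positive fold changes and 1 negative and none past the test. Nos2, the inducible nitric oxide synthase gene, had 15.7, 48.9 and 18.4 CPM in HCD 1, 2 and 3, against 16.3, 15.5 and 19.99 CPM in ND 1, 2 and 3. The 5 other tumours lay close together below HCD 2, and the log2 fold change of 0.68 (95% interval -0.32 to 1.68, edgeR adjusted p = 0.839) became -0.02 without HCD 2. Ly6c2, a surface marker gene of classical monocytes, had 8.44, 14.8 and 7.74 CPM in HCD 1, 2 and 3, against 2.68, 9.53 and 7.38 CPM in ND 1, 2 and 3, a log2 fold change of 0.66 with a 95% interval of -0.45 to 1.77. Its near copy Ly6c1, which endothelium also expresses, had 77.6 to 164 CPM, and 13.2% of the 50-base stretches of Ly6c2 are shared, so some reads could be assigned to either gene. Chil3, which encodes the chitinase-like protein Ym1 of monocytes, neutrophils and alternatively activated macrophages in mice, had 2.94, 3.00 and 2.14 CPM in HCD 1, 2 and 3, against 1.83, 2.19 and 8.44 CPM in ND 1, 2 and 3. ND 3 alone stood apart, and the log2 fold change of -0.62 became 0.42 without it. ND 3 also had the highest summed neutrophil markers, 146 CPM, but ND 1 had 135 CPM of them and the lowest Chil3. The part of neutrophils in the level of Chil3 was not tested. Of the 50-base stretches of Chil3, 29.4% are shared, mainly with Chil4, which had 3 counts in all.

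Resident-like genes were then set against monocyte and inflammatory genes within each tumour. The value is the mean log2(CPM + 0.5) of the 7 resident-like genes minus that of Ly6c2, Chil3 and Nos2, with each gene group centred over the 6 libraries. It was 0.42, -0.04 and -0.79 in HCD 1, 2 and 3, against 0.58, 0.32 and -0.49 in ND 1, 2 and 3. Both diets thus held tumours on either side of 0, with means of -0.13 ± 0.61 in HCD and 0.13 ± 0.56 in ND (SD, n = 3 each). The difference of HCD minus ND was -0.27, smaller than the SD within either diet, and it was 0.06 without HCD 3. In HCD 3 the value came from the resident-like side, which deviated by -0.96, while the monocyte and inflammatory side deviated by -0.17. The 7 resident-like genes include Timd4 and Vsig4, which were near the limit of detection, with 0 and 1 counts in HCD 3. In ND 3 the inflammatory side was at 0.43 and the resident-like side at -0.06. Of the inflammatory genes only Chil3 (8.44 CPM) stood apart in ND 3. Ly6c2 (7.38 CPM) and Nos2 (19.99 CPM) lay within the range of the other tumours. In HCD 2 both sides were high, at 0.68 for resident-like and 0.72 for monocyte and inflammatory genes.

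Levels were also expressed relative to Ptprc in the same tumour, as log2 of the ratio of CPM. The median range over the 6 libraries was 1.67 on the log2 CPM scale and 0.76 on the scale relative to Ptprc, and the range was smaller relative to Ptprc for 27 of the 33 genes, against 13% of tested genes with counts in every library. The median difference of HCD minus ND was 0.36 in log2 CPM and -0.06 relative to Ptprc (-0.132 to 0.078 without 1 library), where 13 genes were positive and 20 negative. On this scale the 3 HCD tumours lay above all 3 ND tumours for 1 gene, C1qa, and below them for 4 genes, Stab1, Siglec1, Folr2 and Clec10a, against 0.375% and 2.58% of genes with counts in every library. C1qa relative to Ptprc was 0.001, -0.06 and 0.17 in HCD 1, 2 and 3, against -0.13, -0.07 and -0.13 in ND 1, 2 and 3, a difference of 0.15. Stab1 relative to Ptprc was -1.03, -1.30 and -1.19 in HCD 1, 2 and 3, against -0.545, -0.96 and -0.91 in ND 1, 2 and 3, a difference of -0.37. Siglec1 differed by -0.40, Folr2 by -0.765 and Clec10a by -0.64. Mrc1 averaged -0.997 ± 0.24 in HCD and -0.53 ± 0.38 in ND (SD, n = 3 each), and its diets overlapped. Cd14 averaged -2.78 ± 0.46 in HCD and -2.03 ± 0.70 in ND (SD, n = 3 each). These 33 values share one denominator, which has its own error, and no test was made of them. The shares over all genes carry that denominator too: on plain CPM they were 4.75% above and 6.36% below. The counts of 1 and 4 genes therefore cannot be read as more than expected.

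**Figure D4:**
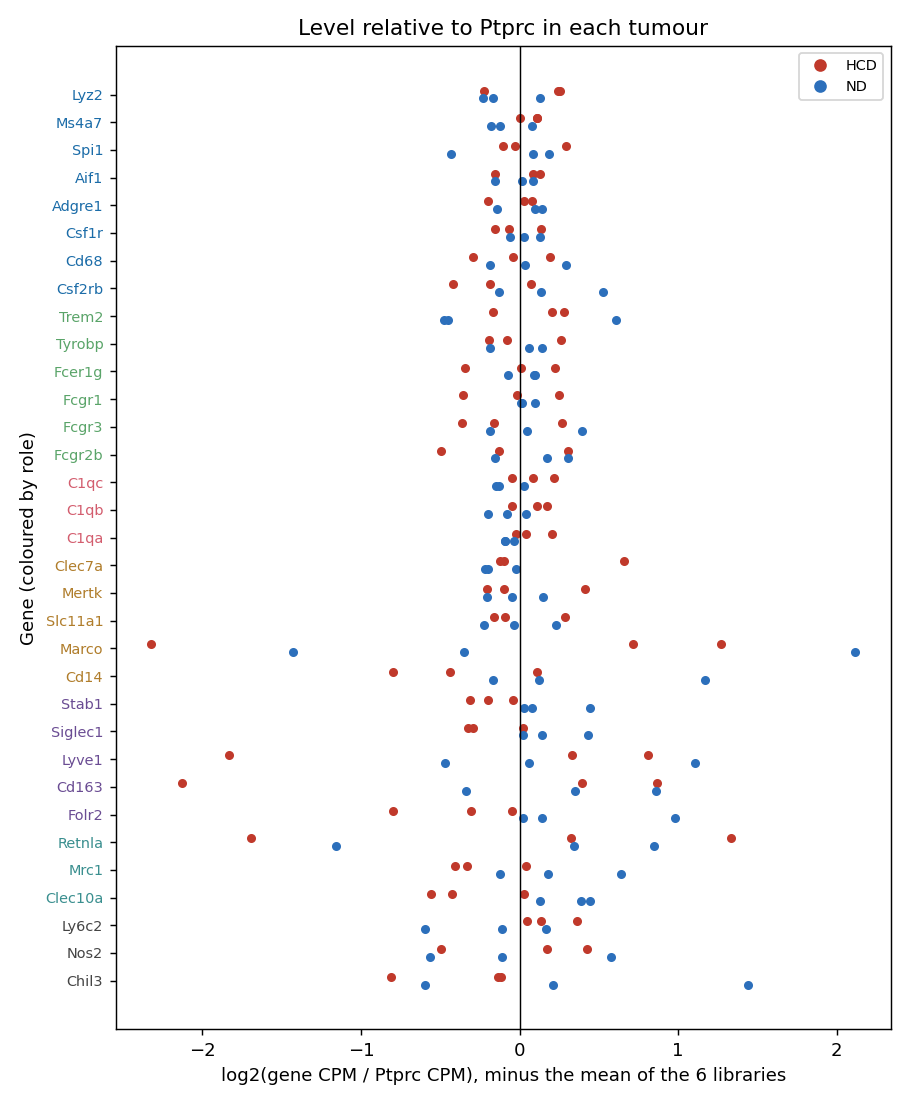
Points are log2 of the ratio of each gene to Ptprc in CPM, minus the mean of the 6 libraries, for 3 HCD tumours (red, upper) and 3 ND tumours (blue, lower). Most lineage, Fc receptor and C1q genes lie within a narrow band with the diets mixed, while for Stab1, Siglec1, Folr2 and Clec10a all HCD points lie left of all ND points.

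Other genes of the same pathways were taken from 5 further lists: of 33 tested genes none passed the test, 26 had positive and 7 negative fold changes, with a median of 0.27 and an edgeR adjusted p of at least 0.839. Signalling genes downstream of ITAM receptors were positive in 6 of 6, with a median of 0.39. Lyn, a Src family kinase gene, had 56.5, 91.6 and 57.7 CPM in HCD 1, 2 and 3, against 45.7, 65.8 and 57.0 CPM in ND 1, 2 and 3. Syk, the kinase that binds phosphorylated ITAMs, had 32.2, 61.3 and 31.1 CPM in HCD 1, 2 and 3, against 25.0, 40.6 and 34.0 CPM in ND 1, 2 and 3. For both, HCD 2 was again the highest and ND 1 the lowest. Of 10 other phagocyte genes 9 were positive with a median of 0.44, among them Ctss and Lgals3. Ctss, a lysosomal protease gene, had 307, 456 and 244 CPM in HCD 1, 2 and 3, against 90.7, 266 and 253 CPM in ND 1, 2 and 3. Lgals3, the galectin-3 gene, had 145, 252 and 217 CPM in HCD 1, 2 and 3, against 145, 173 and 197 CPM in ND 1, 2 and 3. The diets overlapped for both. Ligands and recruitment genes were mixed, 5 positive and 3 negative of 8 tested. Csf1, the ligand of CSF1R, had 56.0, 77.5 and 58.2 CPM in HCD 1, 2 and 3, against 47.6, 60.1 and 64.5 CPM in ND 1, 2 and 3. The chemokine gene Cx3cl1 had 73.7, 74.1 and 63.1 CPM in HCD 1, 2 and 3, against 47.2, 65.4 and 51.7 CPM in ND 1, 2 and 3, a log2 fold change of 0.36 (edgeR adjusted p = 0.839). It was the one gene of these lists with an unadjusted p under 0.05, at 0.0325. Transcription factor genes had a median of 0.05 over 7. Irf8 had 164, 188 and 169 CPM in HCD 1, 2 and 3, against 161, 169 and 191 CPM in ND 1, 2 and 3. Maf had 149, 146 and 144 CPM in HCD 1, 2 and 3, against 189, 146 and 136 CPM in ND 1, 2 and 3. The MERTK ligand genes Gas6 and Pros1 had log2 fold changes of 0.33 and -0.08, and Gas6 had 91.6, 122 and 46.7 CPM in HCD 1, 2 and 3, against 46.0, 86.0 and 74.7 CPM in ND 1, 2 and 3. Pros1 had 47.1, 53.0 and 40.4 CPM in HCD 1, 2 and 3, against 55.9, 40.2 and 52.8 CPM in ND 1, 2 and 3.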

How the data were processed

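Whole-tumour RNA was purified on RNeasy columns and sequenced from paired-end TruSeq libraries, per the labels' protocols. The authors deposited raw read counts and FPKM values per gene, 1 column of each per tumour. The submitters' processing notes list CASAVA 1.8, TopHat2 2.0.9, HTSeq, edgeR and the build mm10 without saying what each did. As neither strand setting nor annotation release was stated there, shared or overlapping sequence is given beside a gene, from 50-base stretches of its longest GENCODE M21 transcript.

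CPM were computed from the counts with TMM factors of 0.9795 to 1.019. The edgeR 4.0.16 quasi-likelihood test (R 4.3.3, legacy form, diet as the only term, filter of minimum count 10 and total 15) covered 15539 genes, with log2 fold changes of HCD over ND (prior count 0.125), Benjamini-Hochberg adjustment, an adjusted threshold of 0.05 and 95% intervals. It was tested on simulated data. Alternatives were other scalings and filters, DESeq2 1.42.0, limma 3.58.1 on counts and on FPKM, a replicate block, and libraries left out. The members, roles and lists were chosen with earlier results of these data known. By rule, values in every library are given for the 2 highest members of each role, all tested resident-like and inflammatory members, the smallest p in each direction, and the 2 highest genes of each pathway list. From the pathway lists 1 gene is not reported here. Further members and markers were added after their values were seen.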

Additional observations from a re-analysis of the deposited data

How the results depend on the processing

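No member passed the adjusted threshold under any alternative run. Over all tested genes, DESeq2 called 1 higher and 7 lower and the other fits with all 6 libraries called 0, while fits without 1 library called 0 to 2 genes lower, the 2 without ND 2, by edgeR. The 2 fits without a pair of libraries were chosen after seeing the data. The median over tested members kept its positive sign in every fit with all 6 libraries and in each fit without 1 library, and was -0.16 without HCD 2 and ND 1. By limma-voom the median of the resident-like group was -0.047, with Cd163 at -0.12 and Lyve1 at -0.047. The difference of resident-like minus inflammatory genes ranged from -0.58 to 0.06 and the median relative to Ptprc from -0.132 to 0.078 without 1 library.
Ranges of medians of log2 fold changes without 1 or a pair of libraries, where the sign changed, were as follows: alternative activation -0.41 to 0.22, resident-like -0.21 to 0.55, monocyte and inflammatory -0.0651 to 0.89, all tested members -0.16 to 0.80, lineage -0.20 to 0.83, Fc receptors and adaptors -0.18 to 0.78, C1q -0.0892 to 0.97. Ranges for single genes were as follows: Mrc1 -0.41 to 0.11, Clec10a -0.98 to 0.22, Adgre1 -0.30 to 0.81, Cd68 -0.21 to 0.74, Aif1 -0.31 to 0.86, Fcgr1 -0.34 to 0.77, Fcer1g -0.30 to 0.80, Marco -0.64 to 1.58, Nos2 -0.0602 to 0.96, Csf2rb -0.29 to 0.21, Siglec1 -0.47 to 0.34, Stab1 -0.38 to 0.32, Folr2 -0.62 to 0.15, Fcgr2b -0.15 to 0.37. Further, they were Chil3 -1.06 to 0.42, Csf1r -0.18 to 0.58, Lyz2 -0.14 to 1.00, Cd163 -0.0508 to 1.01, Fcgr3 -0.10 to 0.40, Tyrobp -0.19 to 0.83, Trem2 -0.16 to 1.16, C1qa -0.0422 to 0.85, C1qb -0.0921 to 0.99, C1qc -0.0892 to 0.97, Ms4a7 -0.13 to 0.97, Ly6c2 -0.0651 to 1.17, Slc11a1 -0.19 to 0.90. The cause was not tested. Deviations of same-numbered tumours of the 2 diets had correlations of -0.307, 0.14 and 0.0832. Those of differently numbered tumours ran from -0.544 to 0.543, so these values cannot settle whether the numbers pair the tumours. An edgeR fit with the replicate number as a block called 0 genes, with a member median of 0.36. In it 7 of 33 members, all higher in HCD, had an unadjusted p under 0.05. At that level 329 genes lay higher and 459 lower of all 15539 tested. With 3 tumours a diet, the intervals of most members cover changes in either direction, and Timd4, Vsig4 and Marco are limited by their low counts.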
